A study of Mus musculus with 16 samples.

Results

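COUP-TF proteins are orphan nuclear receptors that bind repeated short sites in DNA and act mostly as repressors, and they pattern the early nervous system. Meis and Pbx proteins are homeodomain factors of the TALE class, named for a loop of extra residues in the homeodomain. Meis and Pbx bind each other and join Hox proteins on DNA, and in the hindbrain they are needed for Hox-dependent identity; several genes of these families respond to retinoic acid. Here 8 genes of these families were described, taken by name from the 35976 genes of the count table: the COUP-TF genes Nr2f1 (COUP-TFI), Nr2f2 (COUP-TFII) and Nr2f6 (EAR2), the TALE genes Meis1, Meis2 and Meis3, and the TALE genes Pbx2 and Pbx3. The rule names the genes and sets no threshold on a measured value, and all 8 were among the 13891 genes that passed the filter on low counts.

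The cells came from neural tube organoids of the mouse R1 embryonic stem cell line on day 4. All 16 libraries carried the FOXA2-Venus reporter and had retinoic acid (RA) for 18 hours. They differed in the FOXA2 level of the cells, which was negative, low, medium or high, with 4 libraries in each gate, read by BRB-seq, a pooled bulk method that counts mostly the 3′ ends of transcripts. The labels number the libraries without saying that each is a culture of its own, so the p-values reflect variation among libraries that may be technical. In bulk RNA, fewer cells that express a gene and less of its RNA per cell cannot be told apart.

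Depth ran from 3268948 to 9961032 counts per library, so 1 count was worth 0.304 to 0.102 CPM (counts scaled to a common library total). As a check of the labels, Foxa2, which set the gates, had 2.91 ± 1.68 CPM in negative and 113 ± 18.2 CPM in high libraries (SD, n = 4). The neural progenitor genes Sox1 and Sox2 were listed at 0 in all 16 libraries, while 10 of the 12 pan-neural markers looked for had counts in every gate.

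The library Negative 1 stood apart in Meis2. It held 209270 Meis2 counts, which was 3.28% of all its counts. Its Meis2 level of 33902 CPM was 39.3 times that of the next library. Among all 35976 genes, 4 had a single library more than 10 times above all others (CPM + 1), and 3 of them had it in Negative 1. The other such genes of Negative 1 were the unnamed models LOC108168785 (5177 counts, against at most 57 elsewhere) and 4933430M04Rik (714 counts, against at most 18), a lincRNA on chromosome 11 that shares no 50-base word with Meis2. What made the peak was not tested. Results that rest on Negative 1 are given with and without it.

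Related genes can share reads, so the longest identical stretches of their coding sequences were read from GENCODE M21 on GRCm38. Nr2f1 and Nr2f2 shared the longest, 59 bases in a coding exon of each, in the part that encodes the zinc finger DNA-binding domain. It lies at chr13:78198284-78198342 and chr7:70360052-70360110, on the minus strand of both. The capitals mark the 23 bases that Nr2f6 has too, at chr8:71381081-71381103.

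Nr2f1 and Nr2f2: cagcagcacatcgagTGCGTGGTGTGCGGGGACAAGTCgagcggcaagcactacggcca

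This stretch ends at least 1733 bases from the transcript end in Nr2f1 and 3680 in Nr2f2, while BRB-seq reads fall mostly near that end. Among Meis genes, Meis1 and Meis2 shared 32 coding bases at chr11:18884046-18884077 and chr2:115866868-115866899 (minus strand), shown in lower case because no base is singled out.

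Meis1 and Meis2: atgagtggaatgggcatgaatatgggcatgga

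Meis3 shared at most 28 coding bases with Meis2 and 21 with Meis1, and Pbx2 shared 16 with Pbx3. Whole transcripts, with their untranslated ends, were searched only for runs of 50 bases. Shorter shared runs near the 3′ ends, where most reads fall, were therefore not looked for. Within a family, a run of 50 identical bases was found only between Nr2f1 and Nr2f2, and across families Nr2f2 shared 2 overlapping or separate words of 50 bases with Meis1 and 3 with Meis2, both strands searched.

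Nr2f1 fell as FOXA2 rose, and it fell between the low and the medium gate. The gene lies at chr13:78188973-78199757 on the minus strand. Its levels were 38.1, 32.3, 36.9 and 27.1 CPM in negative libraries and 34.3, 24.4, 32.0 and 31.0 CPM in low ones. They were 11.6, 15.2, 8.12 and 13.7 CPM in medium libraries and 6.82, 10.9, 8.17 and 12.8 CPM in high ones. The negative and low gates overlapped, as did the medium and high gates, and the lowest of the first pair of gates (24.4) lay above the highest of the second (15.2). All high libraries lay below all negative ones in 11.1% of all tested genes, and all medium below all low ones in 1.99%. From negative to high FOXA2, the mean was 33.6 ± 4.99, 30.4 ± 4.27, 12.2 ± 3.06 and 9.66 ± 2.68 CPM (SD, n = 4). Counting error alone amounts to 6.71% of a negative library's level and 14.9% of a high library's.

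In edgeR's quasi-likelihood fit over all genes, with Benjamini-Hochberg adjustment, the log2 fold change of Nr2f1 in high versus negative was -1.83 (SE 0.204, adjusted p = 7.69e-08). It was -1.46 in medium versus negative (SE 0.193, adjusted p = 3.29e-06) and -1.32 in medium versus low (SE 0.193, adjusted p = 0.000163). High versus low gave -1.70 (SE 0.204, adjusted p = 7.64e-07). Low versus negative did not pass, at -0.13 (95% interval -0.50 to 0.23, adjusted p = 0.811), and neither did high versus medium, at -0.38 (adjusted p = 0.662). Without Negative 1 the change in high versus negative was -1.77 (adjusted p = 6.23e-07).

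Nr2f1 overlaps the antisense gene A830082K12Rik in exons by 103 bases, and the sources used here do not say whether strand was used in counting, so their reads cannot be told apart there. A830082K12Rik had 9.86 ± 1.96 CPM in negative libraries and 4.04 ± 1.75 CPM in high ones (SD, n = 4). It was lower in high versus negative (log2 fold change -1.29, adjusted p = 0.00486).

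Nr2f2, which is also active in mesenchyme, passed in no comparison. The gene lies at chr7:70351944-70366735 on the minus strand. Its levels were 49.9, 72.4, 73.2 and 54.8 CPM in negative libraries and 89.9, 88.1, 83.3 and 79.8 CPM in low ones. They were 56.5, 104, 68.6 and 59.9 CPM in medium libraries and 77.7, 68.8, 80.3 and 71.5 CPM in high ones. The low libraries all lay above the negative ones, as in 4.04% of all tested genes. The medium gate spread widest because of Medium 2, at 104 CPM. The change in low versus negative was 0.45 (SE 0.152, adjusted p = 0.11), which did not pass in the fit over all libraries. It passed without Medium 2 (0.46, adjusted p = 0.0172), without Low 1 and Medium 2 together (0.43, adjusted p = 0.0481), with no filter on low counts (0.47, adjusted p = 0.0182) and with the replicate number as a block (0.47, adjusted p = 0.0471). The other 21 of 25 alternatives did not pass, and without Negative 1 the change was 0.36 (adjusted p = 0.314). Low 1 and Medium 2 were found apart from their gates in an earlier analysis of these data. High versus negative was 0.26 (SE 0.154, adjusted p = 0.277), and its antisense neighbour B130024G19Rik held 114 counts in all 16 libraries.

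Nr2f6, a transcriptional repressor, lies at chr8:71374123-71381960 on the minus strand and passed in no comparison. Its levels were 21.1, 21.7, 15.8 and 11.9 CPM in negative libraries and 18.7, 18.2, 22.4 and 18.6 CPM in low ones. They were 23.2, 26.7, 20.2 and 22.8 CPM in medium libraries and 22.4, 16.4, 24.0 and 16.7 CPM in high ones. All gates overlapped their neighbours, and the largest change from the negative gate was 0.41 in the medium gate (SE 0.183, adjusted p = 0.19). Its counts may include reads of Ocel1 on the other strand, which overlaps it by 525 bases and had 15.6 ± 1.80 CPM in negative and 10.7 ± 1.57 CPM in high libraries (SD, n = 4), a change that did not pass (adjusted p = 0.121 by edgeR).

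**Figure D1:**
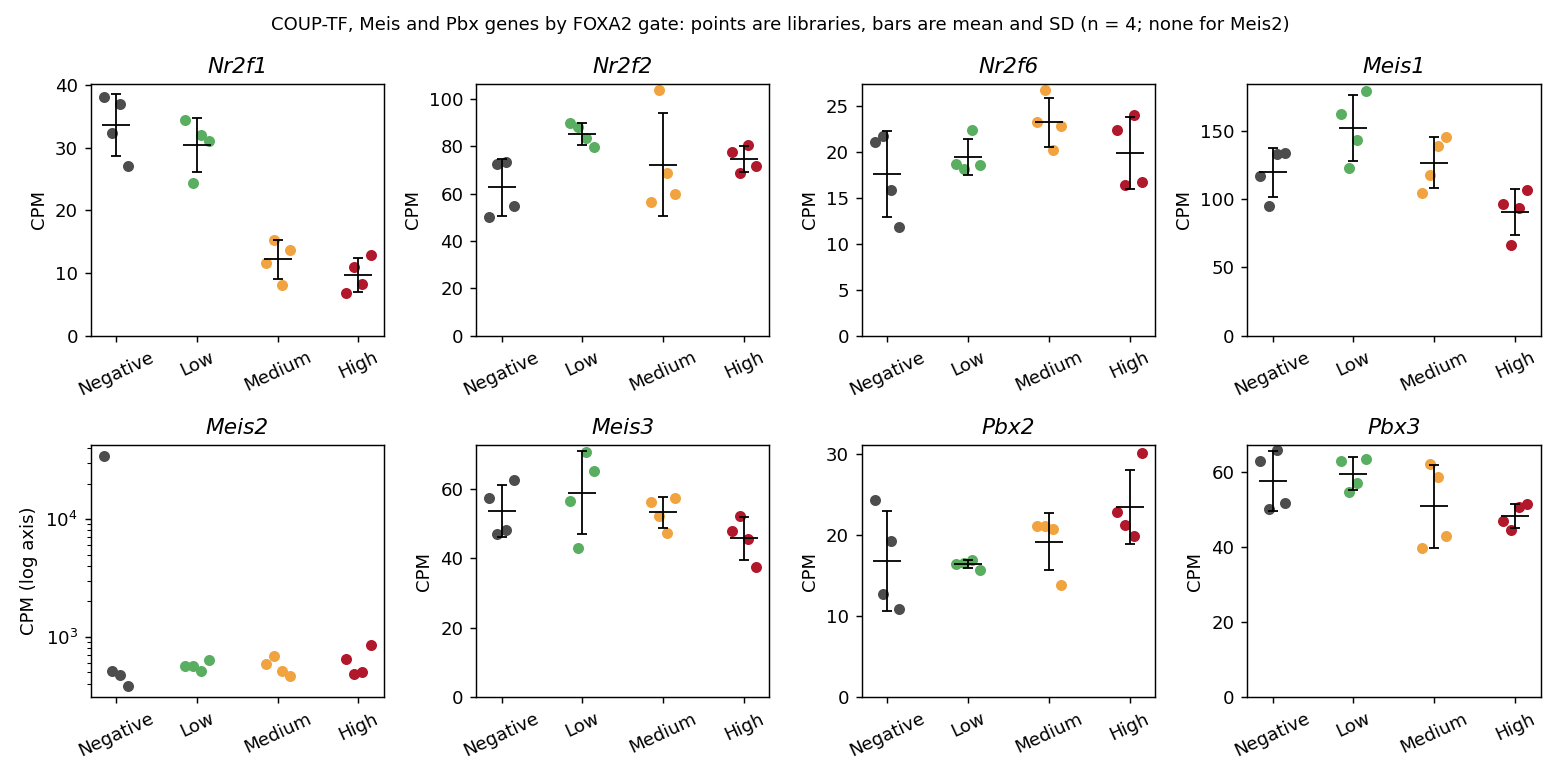
Level of each gene (CPM, vertical axis; logarithmic for Meis2) in the 16 libraries by FOXA2 gate (horizontal axis). Points are libraries and bars the mean and SD of 4 libraries, left out for Meis2; Nr2f1 lies at 24.4 CPM or more in the negative and low gates and at 15.2 CPM or less in the medium and high gates.

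Within a library, the ratio of Nr2f1 to Nr2f2 counts does not depend on how libraries are scaled, and it shows whether the COUP-TF genes changed unequally. The log2 ratio was -0.39, -1.16, -0.98 and -1.01 in the negative libraries and -1.39, -1.85, -1.37 and -1.36 in the low ones. It was -2.26, -2.76, -3.05 and -2.11 in the medium libraries and -3.48, -2.63, -3.27 and -2.46 in the high ones. Every low, medium and high library lay below every negative one, and Negative 1 was the highest of all. Against the negative gate, the ratio was lower by a mean log2 difference of -0.61 for low, -1.66 for medium and -2.07 for high, a 4.21-fold difference for the last. Each of these gave an exact two-sided permutation p of 0.0286, the smallest that 4 against 4 can give, and 0.0643 after adjustment over the 9 ratio tests, so none passed. At that smallest p a ratio can pass only if most of the 9 tests reach it too. Not passing therefore does not speak against a difference. Without Negative 1 the difference in the high gate was -1.91.

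Meis1, a homeodomain partner of Hox and Pbx proteins, had its highest mean in the low gate and its lowest in the high gate. It lies at chr11:18879817-19018985 on the minus strand, where its exons overlap those of Gm37818 on the same strand by 1029 bases and of Gm16140 on the opposite strand by 896 bases. No counts of those 2 genes were used here, so any reads they share with Meis1 cannot be told apart. Its levels were 117, 94.97, 133 and 134 CPM in negative libraries and 163, 123, 144 and 179 CPM in low ones. They were 105, 118, 139 and 146 CPM in medium libraries and 96.5, 66.8, 93.6 and 107 CPM in high ones. The low and high gates did not overlap, while each of the other pairs of gates did. All high libraries lay below all low ones in 5.95% of all tested genes. High versus low was -0.74 (log2, SE 0.144, adjusted p = 0.000961).

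High versus negative was -0.40 (SE 0.144, adjusted p = 0.0561) for Meis1 and did not pass. It passed with no filter on low counts (adjusted p = 0.0164), with the replicate number as a block (0.0102), in a fit of the 2 gates alone (0.0446) and without Negative 2 (0.0229), Low 2 (0.0471) or High 4 (0.0373). The other 19 of 25 alternatives did not pass, and without Negative 1 the change was -0.41 (adjusted p = 0.0809). High versus medium was -0.48 (adjusted p = 0.149), and it passed with no filter (adjusted p = 0.00856) and with the block (0.0155) but not under the other 23 alternatives. Low versus negative was 0.35 (SE 0.142, adjusted p = 0.223).

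Meis2, a close relative of Meis1, lies at chr2:115863064-116065839 on the minus strand. Its levels were 33902, 519, 474 and 387 CPM in negative libraries and 564, 564, 511 and 635 CPM in low ones. They were 586, 694, 515 and 471 CPM in medium libraries and 652, 486, 507 and 862 CPM in high ones. Leaving Negative 1 aside, the other 15 libraries lay between 387 and 862 CPM, and the 3 other negative libraries averaged 460 ± 66.9 CPM (SD, n = 3). Negative 1 had 73.7 times that mean.

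The fitted change of Meis2 turned on that library. With it, high versus negative was -3.82 (SE 1.28, adjusted p = 0.0617), medium versus negative -3.96 (adjusted p = 0.087) and low versus negative -3.96 (adjusted p = 0.144). Without Negative 1 these became 0.44 (adjusted p = 0.0872), 0.30 (adjusted p = 0.366) and 0.31 (adjusted p = 0.485), of the opposite sign and not passing either. With edgeR's robust option off, all 3 changes with Negative 1 passed as lower (adjusted p = 0.0041, 0.00541 and 0.0113), and DESeq2 returned no p for Meis2. High versus negative also passed as lower without Negative 2, 3 or 4 (adjusted p = 0.0393, 0.0355 and 0.0339), and medium versus negative without Negative 4 (adjusted p = 0.0478).

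Meis3, which acts with Pbx and Hox proteins in the hindbrain, lies at chr7:16175090-16186504 on the plus strand. Its levels were 57.3, 46.9, 48.0 and 62.5 CPM in negative libraries and 56.6, 43.1, 70.7 and 65.3 CPM in low ones. They were 56.1, 52.3, 47.2 and 57.4 CPM in medium libraries and 47.9, 52.1, 45.6 and 37.4 CPM in high ones. All pairs of gates overlapped, with the low gate the widest. No comparison passed in the fit over all libraries. High versus low was -0.36 (SE 0.144, adjusted p = 0.146). It passed without Low 2 (-0.49, adjusted p = 0.034) but not under the other 24 alternatives.

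The ratio of Meis1 to Meis2 counts was set by Negative 1 in the negative gate, with a log2 ratio of -8.18 there against -2.45, -1.83 and -1.53 in its other libraries. In the high libraries it was -2.75, -2.86, -2.44 and -3.01. Without Negative 1, the high gate lay below the negative gate by a mean log2 difference of -0.83 (exact two-sided permutation p = 0.0571, adjusted 0.0857), and with it the difference was 0.73 (exact permutation p = 0.971). High 3 lay just above Negative 2, so the gates overlapped even without Negative 1.

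**Figure D2:**
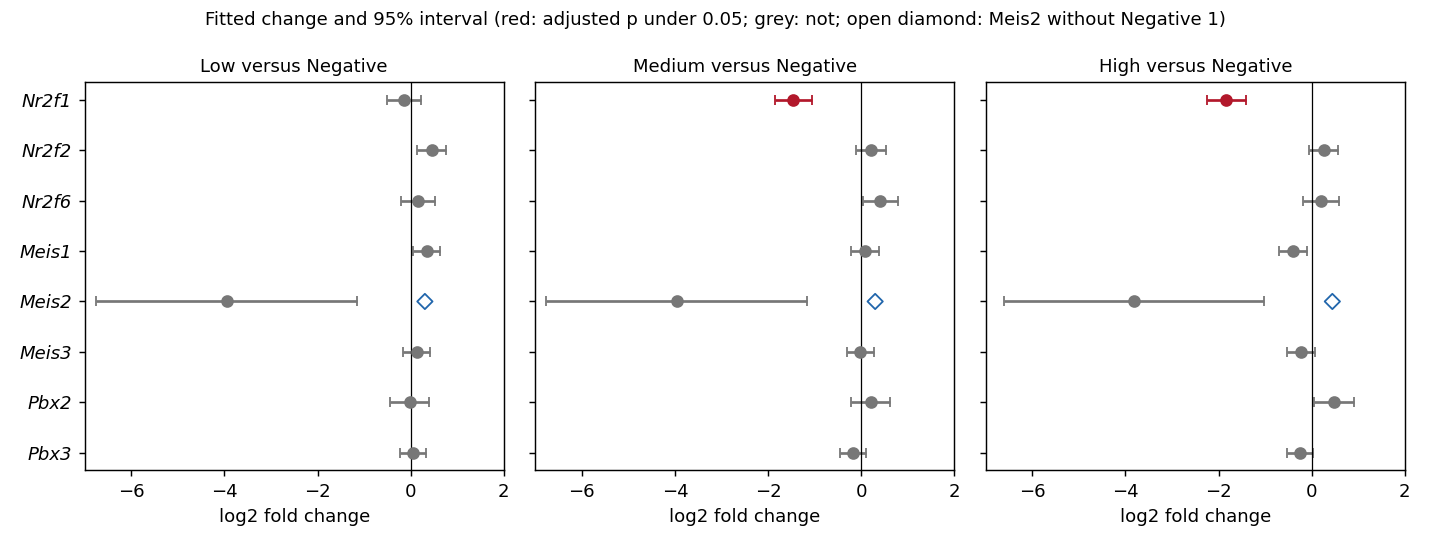
Fitted log2 fold change (horizontal axis) of each gene in the low, medium and high gate against the negative gate, with 95% intervals, red where the adjusted p was under 0.05. Only Nr2f1 passed, in the medium and high gates; the open diamonds show that Meis2 moved from -3.82 to 0.44 in the high gate without Negative 1.

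Pbx2, on chr17:34591266-34597400 (plus strand), encodes a partner that helps Meis and Hox proteins bind DNA. Its levels were 24.3, 12.7, 19.3 and 10.9 CPM in negative libraries and 16.5, 16.6, 16.9 and 15.7 CPM in low ones. They were 21.1, 21.1, 20.7 and 13.9 CPM in medium libraries and 22.8, 21.2, 19.9 and 30.1 CPM in high ones. The negative libraries spread the most (a coefficient of variation of 36.9%), and Negative 1 lay within the range of the high gate. High versus negative was 0.49 (SE 0.208, adjusted p = 0.113). It passed as higher without Negative 1 (0.72, adjusted p = 0.0174) but not under the other 24 alternatives. The high libraries all lay above the low ones, as in 6.92% of all tested genes, but high versus low did not pass (0.51, adjusted p = 0.166). Gpsm3 overlaps Pbx2 on the same strand by 227 bases and had 6.61 ± 2.30 CPM in negative and 9.14 ± 2.39 CPM in high libraries (SD, n = 4), so reads in the shared part cannot be told apart.

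Pbx3, on chr2:34171457-34373142 (minus strand), is a relative of Pbx2 with a related homeodomain. Its levels were 62.9, 50.004, 65.9 and 51.6 CPM in negative libraries and 62.8, 54.6, 57.2 and 63.5 CPM in low ones. They were 39.8, 62.0, 58.6 and 42.9 CPM in medium libraries and 46.9, 44.5, 50.6 and 51.4 CPM in high ones. The high libraries all lay below the low ones, as in 5.95% of all tested genes. The medium gate fell into 2 higher and 2 lower libraries. No comparison passed in any fit tried; high versus low was -0.30 (SE 0.139, adjusted p = 0.238) and high versus negative -0.25 (SE 0.139, adjusted p = 0.242).

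The ratio of Pbx3 to Pbx2 counts gave log2 values of 1.37, 1.97, 1.76 and 2.24 in the negative libraries and 1.04, 1.06, 1.34 and 0.77 in the high ones. These did not overlap, although Negative 1, the lowest negative library, lay close to High 3. The mean log2 difference was -0.78 (exact two-sided permutation p = 0.0286, the smallest possible, adjusted 0.0643), and -0.94 without Negative 1. In the medium gate the difference was -0.44 (exact permutation p = 0.143), and -0.60 without Negative 1 (exact permutation p = 0.0286, adjusted 0.0514). In the low gate it was 0.01 (exact permutation p = 0.943).

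**Figure D3:**
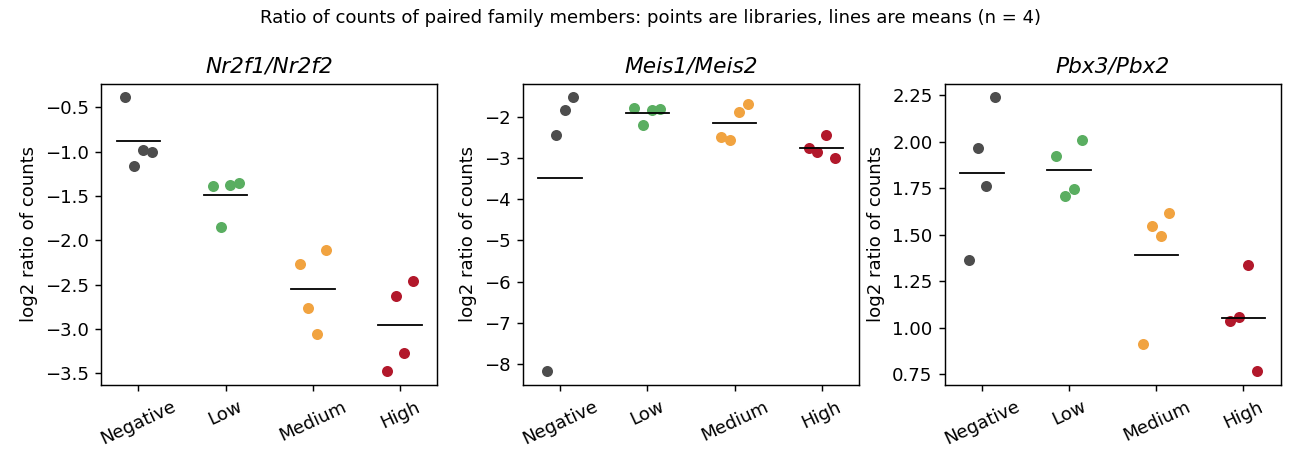
Log2 ratio of counts (vertical axis) of Nr2f1 to Nr2f2, Meis1 to Meis2 and Pbx3 to Pbx2 in each library by gate (horizontal axis); points are libraries and lines the mean of 4. The first ratio lies between -1.16 and -0.39 in the negative gate and between -3.48 and -2.46 in the high gate, and Negative 1 lies alone at -8.18 in the second.

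Counted over the 8 genes, calls were few and all were decreases. High versus negative had 1 of 8 lower (Nr2f1) and 0 higher, where 8.55% of all tested genes were lower and 8.42% higher. At an unadjusted p under 0.05, edgeR had 1 higher there (Pbx2). Medium versus negative had 1 of 8 lower, against 4.22% of all genes, and 0 higher, against 4.24%. Low versus negative had 0 of 8 either way, against 2.29% lower and 1.47% higher, and at an unadjusted p under 0.05 edgeR gave 3 (Nr2f2, Meis1 and Meis2) and DESeq2 called 0. Medium versus low had 1 of 8 lower, against 0.223%, and 0 higher, against 0.49%. High versus medium had 0 of 8, against 0.547% lower and 0.367% higher, with 1 (Meis1) at an unadjusted p under 0.05 in edgeR and 0 called by DESeq2. High versus low had 2 of 8 lower (Nr2f1 and Meis1), against 3.08%, and 0 higher, against 3.79%. For the 0 higher calls of these last comparisons, edgeR at an unadjusted p under 0.05 had 1 in medium versus negative (Nr2f6), 0 in medium versus low and 1 in high versus low (Pbx2), and DESeq2 called 0 members higher in any comparison. With 8 genes, a share of 1 in 8 is the smallest that can be seen, so these counts describe the named genes and do not set the group apart. The median log2 fold change of the 8 genes in high versus negative was -0.24, beside 0.00 for all tested genes. That median counts Meis2 at -3.82, a value that rests on Negative 1. Without Negative 1, Nr2f1 (-1.77), Meis1 (-0.41), Pbx3 (-0.21) and Meis3 (-0.20) were below 0. Nr2f2 (0.17), Nr2f6 (0.31), Meis2 (0.44) and Pbx2 (0.72) were then above 0, so the median does not show a shift of the group.

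The promoters were searched for short motifs in the RefSeq table on GRCm38.p6, which held windows of 250 bases before a start for 7 of the 8 genes. The motifs, on both strands, were TGTTTAC (the forkhead motif that FOXA proteins recognise), AGGTCA (the core site of nuclear receptors), TGACAG (a Meis motif) and TGATNNAT (a Pbx-Hox motif). They occurred in 3.17%, 14.0%, 15.9% and 7.68% of 32851 windows of that length. Among the members the only match was the forkhead motif in a window of Nr2f1, which is shown because Nr2f1 was called in the most comparisons. Another window of Nr2f1, at chr13:78198874-78199123, held none of these motifs. The match lies 148 bases before a RefSeq start inside the gene, within an annotated UTR, at chr13:78196581-78196607 on the minus strand, with the motif in capitals.

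Nr2f1 forkhead match: gagttgtcttTGTTTACatggcaattg

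A match of these letters is a description and not a binding site, and the other genes lack these letters only within their windows.

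Among the other TALE genes, 12 of 13 were tested, and in high versus negative edgeR called 2 higher and 2 lower (DESeq2 2 and 0), with a median log2 fold change of 0.12. Tgif1, a repressor of the TALE class, was higher (24.5 ± 1.90 to 38.5 ± 5.56 CPM, log2 fold change 0.64, adjusted p = 0.00192). The Iroquois genes Irx5 (-0.63, adjusted p = 0.045) and Irx3 (-0.42, adjusted p = 0.0474), active in intermediate neural tube, were lower in edgeR's test and not in DESeq2's. In medium versus negative edgeR called 0 of the 12 (5 at an unadjusted p under 0.05; DESeq2 0), and in low versus negative 0 (5; DESeq2 1). Levels are mean ± SD of 4 libraries.

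Of the other nuclear receptors, 11 of 15 were tested. In high versus negative 1 was higher and 3 lower, with a median of 0.00. The orphan receptors Nr5a2 (14.2 ± 2.41 to 5.02 ± 1.41 CPM, -1.46, adjusted p = 0.000104) and Esrrb (7.72 ± 0.341 to 1.40 ± 0.951 CPM, -2.50, adjusted p = 0.000429), both known from pluripotent cells, were lower. The retinoid X receptor gene Rxrg was also lower (3.61 ± 1.54 to 0.353 ± 0.342 CPM, -3.25, adjusted p = 0.000213), and the orphan receptor Nr2c1 was higher (0.69, adjusted p = 0.00899). The cofactor list had 6 of 7 tested, 2 higher and 0 lower (also 0 lower at an unadjusted p under 0.05 and by DESeq2), with a median of 0.32. Among the higher genes was Pbxip1, which binds Pbx proteins and hinders their binding to DNA (26.9 ± 3.04 to 47.4 ± 5.85 CPM, 0.82, adjusted p = 7.19e-05). Levels are mean ± SD of 4 libraries.

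Hox genes of groups 1 to 8, whose products bind DNA with Meis and Pbx, had 14 of 23 tested. Among the untested, Hoxa4, Hoxa5, Hoxa6, Hoxb4 and Hoxd4 were listed at 0 in all 16 libraries, like Sox1 and Sox2. In high versus negative 0 were higher (also 0 at an unadjusted p under 0.05 in edgeR, and 0 by DESeq2) and 4 lower, with a median of -0.28. Hoxa2 fell from 46.7 ± 3.75 to 21.6 ± 2.41 CPM (SD, n = 4; -1.11, adjusted p = 9.42e-06). Hoxd3 (-2.15, adjusted p = 0.000183), Hoxb3 (-1.22, adjusted p = 0.000301) and Hoxb7 (-1.42, adjusted p = 0.000374) fell with it. In high versus low 5 were lower and 1 (Hoxb1) was higher, with a median of -0.74. In low versus negative edgeR called 0 of the 14 (3 at an unadjusted p under 0.05; DESeq2 0).

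The list of retinoic acid and hindbrain genes had 12 of 16 tested, 4 higher and 2 lower in high versus negative, with a median of -0.18. Stra6, the retinol uptake receptor, was higher by 0.85 (adjusted p = 0.00103). Crabp1, which binds retinoic acid in the cell, fell from 5483 ± 1182 to 2751 ± 446 CPM (-0.995, adjusted p = 7.24e-06). Cdx2 was also among the higher genes, and Crabp2 was the other lower one. Levels are mean ± SD of 4 libraries.

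**Figure D4:**
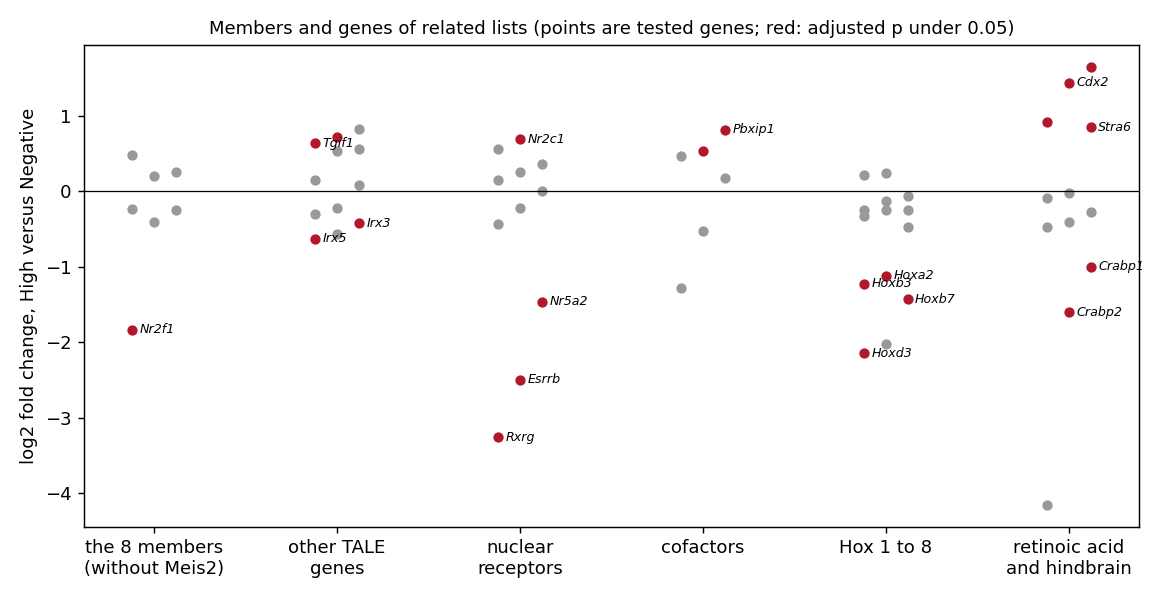
Log2 fold change in high versus negative (vertical axis) of the tested genes of each list (horizontal axis), red where the adjusted p was under 0.05, with names for the genes given in the text. Nr2f1 at -1.83 is the only red point among the members drawn (Meis2 is left out), and 4 of 14 Hox genes are red, all below 0.

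The pattern of Nr2f1 was most like those of Mest, an imprinted gene, Ntrk2, a neurotrophin receptor gene, and Sall2, a zinc finger factor, among 9829 genes with at least 5 CPM on average. The Pearson r of log2(CPM + 1) over the 16 libraries was 0.94, 0.94 and 0.93. These values share libraries and gates, so they describe likeness only. Ntrk2 had 32.7, 27.5, 12.4 and 6.35 CPM on average in the negative, low, medium and high gates.

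**Figure D5:**
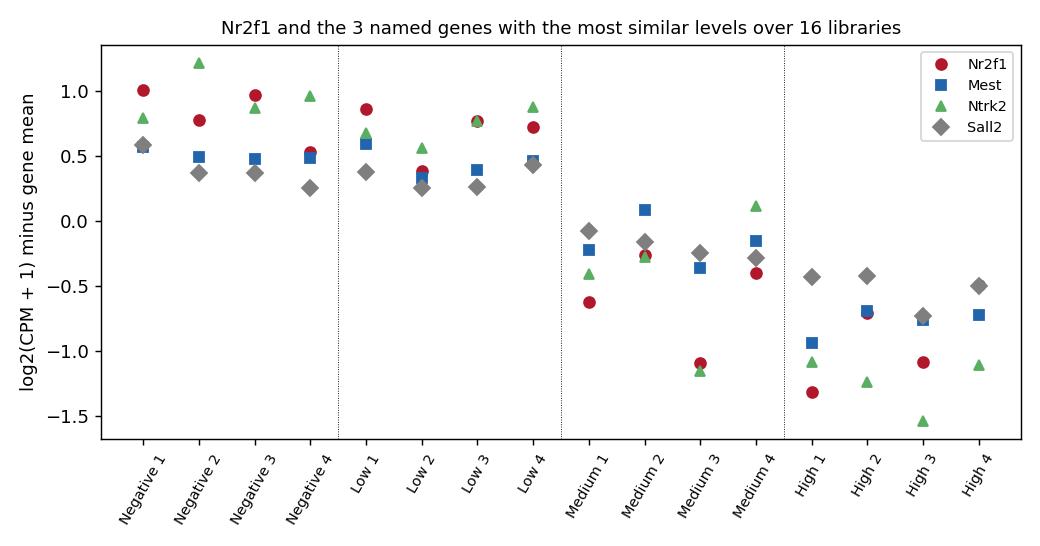
Log2(CPM + 1) minus the gene's own mean (vertical axis) for Nr2f1, Mest, Ntrk2 and Sall2 in the 16 libraries (horizontal axis, in gate order; dotted lines part the gates). All 4 genes lie above their mean in the negative and low gates, and below it in the medium and high gates apart from Mest in Medium 2 and Ntrk2 in Medium 4.

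For the other members the most similar gene was Smarcc1 for Nr2f2 (r = 0.86), Mical3 for Nr2f6 (0.77), Lhfpl4 for Meis1 (0.91), Slc35e4 for Meis3 (0.81), Rbfox2 for Pbx2 (0.91) and Lsamp for Pbx3 (0.87). For Meis2 it was Ptprt (0.91), which fell to 0.39 without Negative 1, where Coq2 was the most similar (0.90). Among the members themselves, over all 16 libraries the largest r was 0.59, between Nr2f1 and Pbx3 (0.55 without Negative 1). Without Negative 1 the largest was 0.71, between Meis2 and Pbx2 (0.40 with it), followed by 0.63 between Nr2f2 and Pbx3. Nr2f1 and Nr2f2 had -0.02, and 0.18 without Negative 1.

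The summed levels of markers of other cell states moved with the gates. The 14 pluripotency markers summed to 855 to 1447 CPM in the negative libraries and to 246 to 301 CPM in the high ones, where Pou5f1 was at 0. The 12 pan-neural markers summed to 371 to 428 CPM and 97.6 to 134 CPM, and in the low and medium gates to 377 to 457 CPM and 227 to 277 CPM, with no overlap between the low and medium libraries or between the medium and high ones. The 11 floor plate markers went from 114 to 134 CPM up to 332 to 402 CPM, and the 12 endoderm markers from 65.6 to 83.7 CPM up to 325 to 336 CPM. Most of the endoderm sum in the high gate came from Cldn6 (mean 149 CPM) and Sox17 (134 CPM). In high versus negative, edgeR called 3 of 7 tested endoderm markers higher (Sox17, Ttr and Cldn6). Gata4 (3.97 to 2.13 CPM) and Foxa3 (1.83 to 1.54 CPM) were lower without passing. The 13 mesoderm and mesenchyme markers, summed to 22.6 to 31.1 CPM in the negative gate, 52.5 to 68.4 CPM in the low, 55.1 to 70.7 CPM in the medium and 42.3 to 54.7 CPM in high ones. The 10 neuron markers went from 153 to 229 CPM down to 62.5 to 87.8 CPM. The 8 neural crest markers went from 21.2 to 42.2 CPM down to 11.3 to 20.5 CPM. The 8 endothelial markers went from 11.6 to 18.6 CPM down to 2.62 to 7.30 CPM. Cdh5 and Emcn were at 0 in the high gate but held only 4 counts each over all 16 libraries. Mean Pecam1 fell from 7.39 to 1.89 CPM, and Etv2 and Esam fell too. Mean Tek rose from 0.672 to 1.41 CPM without being called. The untested Kdr (0.386 to 0.452 CPM) and Tie1 (0.071 to 0.362 CPM) also had higher means in the high gate. Of the tested neuron, neural crest and endothelial markers, edgeR called 5 of 8, 2 of 6 and 3 of 4 lower in high versus negative. The part of these cell states in the changes of Nr2f1 and Meis1 was not tested.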

How the data were processed

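The authors deposited raw, unscaled counts per gene (35976 genes) for each of 16 libraries. According to the submitters' processing notes, the tools were DESeq2 1.42.0, STARsolo 2.7.9a and cutadapt 1.18, with the build GRCm38. Annotation, strand setting and use of molecular identifiers were not given in the sources used here. The group of a library came from its labels.

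Counts were fitted in edgeR 4.0.16 (R 4.3.3) with TMM scaling, its expression filter and a robust quasi-likelihood model of the 4 gates over 16 libraries. The 6 pairwise comparisons were adjusted by Benjamini-Hochberg over 13891 genes at 0.05. Robust shrinkage was chosen to match an earlier analysis. The members and lists were chosen with earlier results of these data known. All members were named, with up to 4 genes per list by adjusted p in high versus negative. Count ratios (1 added to each count) were compared by exact permutation (scipy 1.17.1) over the 70 splits of 4 against 4. Smallest chi-square per degree of freedom between libraries of a gate was 4.25, so no library was merged with another. Both tests were tried on simulated data first. Counting errors cover counting only, and the 95% intervals come from the edgeR fit and include variation among libraries.

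Other settings tried were DESeq2 1.42.0, RLE scaling, no filter, a replicate block, thinning to 3268948 counts, 2 gates alone, each library left out, Low 1 and Medium 2 left out, and other added counts. Added after the data were seen were the fit without robust shrinkage, totals without the genes of the Negative 1 peak, and likeness without Negative 1. Some genes that the naming rule takes are not analysed by name here.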

Additional observations from a re-analysis of the deposited data

Results flagged for a closer look

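Of 44 groups of 4 libraries examined for a single library far from the rest, 6 held one, and chance gives about 1 in 20. The Meis2 level of Negative 1 was 33902 CPM, and the log2 ratio of Meis1 to Meis2 there was -8.18, which contains the same Meis2 count. The log2 ratio of Nr2f1 to Nr2f2 was -1.85 in Low 2, below the other low libraries, and the log2 ratio of Meis1 to Meis2 was -2.20 in the same library. Among the medium libraries Pbx2 was lowest in Medium 4, at 13.9 CPM, and among the low libraries Nr2f6 was highest in Low 3, at 22.4 CPM.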

How the results depend on the processing

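Nr2f1 passed as lower in high and medium versus negative, medium versus low and high versus low, and Meis1 in high versus low, under all 25 alternatives of each. Members lower in high versus negative became 2 with no robust shrinkage (Nr2f1 and Meis2) and with no filter, the replicate block or 2 gates alone (Nr2f1 and Meis1), and ran from 1 to 3 as libraries were left out, with members higher 0 to 1. In medium versus negative they became 2 without robust shrinkage and ran from 1 to 2. In low versus negative 1 member was higher with no filter, the replicate block or without Low 1 and Medium 2 (0 to 1 with libraries left out), and 1 lower without robust shrinkage. In high versus medium 1 was lower with no filter and the block.

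Counts over all genes moved as follows. With no filter, low versus negative had 318 higher (125 to 278 with libraries left out, the lowest without Negative 1), medium versus low 120 higher and 69 lower, and high versus medium 87 higher and 135 lower. With 2 gates alone medium versus low had 39 higher and 18 lower, and DESeq2 gave 49 lower. Leave-outs gave 34 to 79 higher and 16 to 35 lower there. Without Low 1 and Medium 2, high versus medium had 171 higher and 153 lower, and leave-outs gave 26 to 112 and 46 to 121, the highest of both without Medium 2. The replicate numbers were not taken as pairs in the main fit. Of 24 same-numbered pairs, 7 correlated above 0.1, with a median of 0.035 against -0.011 for other pairs. Yet 11 of 16 libraries correlated best with a library of their own number. Whether the numbers mark a shared culture was not tested. With the number as a block, Meis1 passed in high versus negative and high versus medium, and Nr2f2 in low versus negative.

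Some values that had not passed changed sign, mostly values near 0. The Meis2 changes against the negative gate, and the Meis1 to Meis2 ratio in the medium and high gates, were not near 0. They changed sign only without Negative 1. In medium versus negative, Nr2f2 was -0.0071 without Low 1 and Medium 2, and Meis3 was 0.0025 with no filter, 0.040 thinned and 0.0011 without those libraries. Pbx2 in low versus negative was 0.0061 with the replicate block, Meis2 in medium versus low 0.020 thinned and 0.012 with 2 gates, and Pbx3 in high versus medium 0.029 without Low 1 and Medium 2. With libraries left out, the changes of Meis1 (medium versus negative) ran from -0.014 to 0.17, Meis2 from -4.22 to 0.44 (high versus negative), -4.36 to 0.30 (medium) and -4.36 to 0.31 (low), -0.055 to 0.24 (high versus low), -0.050 to 0.25 (high versus medium) and -0.12 to 0.072 (medium versus low), and Meis3 (medium versus negative) from -0.077 to 0.068. Nr2f2 ran from -0.059 to 0.27 (high versus medium) and -0.0072 to 0.32 (medium versus negative), Nr2f6 from -0.066 to 0.13 (high versus low) and -0.0039 to 0.27 (low versus negative), Pbx2 from -0.19 to 0.22 (low versus negative) and Pbx3 from -0.18 to 0.029 (high versus medium) and -0.012 to 0.12 (low versus negative). The Meis1 to Meis2 ratio ran from -0.83 to 1.39 (high) and -0.22 to 2.00 (medium), and Pbx3 to Pbx2 from -0.14 to 0.15 (low). The likeness of Cars to Meis2 became -0.10 without Negative 1, and that of Pex14 -0.10 by rank and -0.43 without Negative 1. The cause of these moves was not tested. At 3268948 to 9961032 counts a count of 0 allows up to 0.913 CPM in the shallowest library.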
